A study of Mus musculus with 8 samples.

Results

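The genes described here are 36 antioxidant genes of skeletal muscle, namely superoxide dismutases, catalase, glutathione peroxidases, peroxiredoxins, thioredoxins, glutaredoxins and the genes of glutathione synthesis and use. They were the rows of the deposited table whose Ensembl identifier carries the listed symbol in GENCODE M21, 36 of 48328 rows. By the site of their proteins, 7 were counted as mitochondrial, 17 as cytosolic, 6 as enzymes of the endoplasmic reticulum or its membrane, 3 as shared between cytosol and mitochondria, 2 as secreted and 1 as peroxisomal. The groups were 4 K320E-skm and 4 wild-type C57BL/6J mice, all 24 months old, and the RNA came from the tibialis anterior, a fast hindlimb muscle. K320E-skm mice carry in skeletal muscle a dominant mutant Twinkle, the helicase that unwinds mitochondrial DNA for replication, and the labels do not give the promoter that drives it. Values are FPKM (fragments scaled to transcript length and to all mapped fragments of a library), so levels can be compared between genes per length. Where 4 values are given for a genotype, they stand in the order of the replicate numbers. The study asked how old muscle that carries the mutant protein differs from wild-type muscle.

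Superoxide, a by-product of the respiratory chain, is turned into hydrogen peroxide by superoxide dismutases, and the peroxide is removed by catalase, by glutathione peroxidases and by peroxiredoxins. Glutathione peroxidases draw their electrons from glutathione, and most peroxiredoxins from thioredoxin, while glutathione reductase and the thioredoxin reductases restore both with NADPH. Mitochondria hold a set of their own, with Sod2, Prdx3, Txn2 and Txnrd2 in the matrix, beside the cytosolic Sod1, Prdx1, Txn1 and Txnrd1. When oxidants or electrophiles disable the sensor KEAP1, the transcription factor NRF2 drives many of the cytosolic genes from antioxidant response elements.

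Several facts of the libraries bear on what follows. Twnk, which encodes Twinkle, averaged 4.62 ± 0.557 FPKM in K320E-skm muscle, against 2.37 ± 0.245 FPKM in wild-type muscle (SD, n = 4 each; log2 fold change 0.74, limma adjusted p = 0.182), and FPKM do not separate the introduced from the endogenous copy. K320E-skm 4 is labelled male, but its Y-linked Ddx3y stood at 0.0117 FPKM and its Xist at 10.2 FPKM, as in the libraries labelled female, so the labelled sex was kept out of the main test. The 2 mitochondrial ribosomal RNAs took 41.5% to 46.9% of the summed FPKM in K320E-skm libraries and 31.2% to 37.5% in wild-type libraries. Over all 10521 genes tested, the log2 fold changes had a median of −0.14 on the deposited scale. It was 0.02 once each library had been divided by its median ratio to the others, called rescaling below, and values are given on both scales where this matters. The fast-muscle gene Ckm was at 5421 to 6664 FPKM in K320E-skm and 6560.1 to 7408 FPKM in wild-type libraries. Tnnt3 was at 6848 to 8307 FPKM in K320E-skm and 9410.2 to 10397 FPKM in wild-type libraries, without overlap. Its log2 fold change was −0.35, or −0.15 rescaled (limma adjusted p = 0.382 as deposited). Of all genes tested, 9.59% lay apart in this lower direction. The fast genes Tnni2 and Mylpf overlapped between the genotypes. The fast myosin Myh4 had a listed value of 0 in wild-type 4 and in every K320E-skm library but the first. The deposited table holds no read counts, so depth is unknown. The RNA is from whole muscle, where fewer cells of a type and less RNA per cell cannot be told apart.

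No antioxidant gene passed the test between the genotypes. All 36 genes passed the expression filter of 1 FPKM in at least 4 libraries, and limma (adjusted p under 0.05, Benjamini-Hochberg over all genes tested) called 0 of the 36, with a smallest adjusted p of 0.289, against 2 genes or 0.019% of all genes tested. At an unadjusted p under 0.05, 1 of the 36 was higher in K320E-skm muscle, Hmox1, and 2 were lower, Gstm1 and Gsta4. The same rule was met by 1.07% of all genes in the higher direction and by 13.6% in the lower. After rescaling, 3 of the 36 were higher, Hmox1, Srxn1 and Gss, and 0 were lower, where the rule was met by 5.72% and 3.76% of all genes. Over the 36 genes the log2 fold changes had a median of −0.06 before and 0.12 after rescaling, and 23 and 25 of them lay above the median gene.

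**Figure D1:**
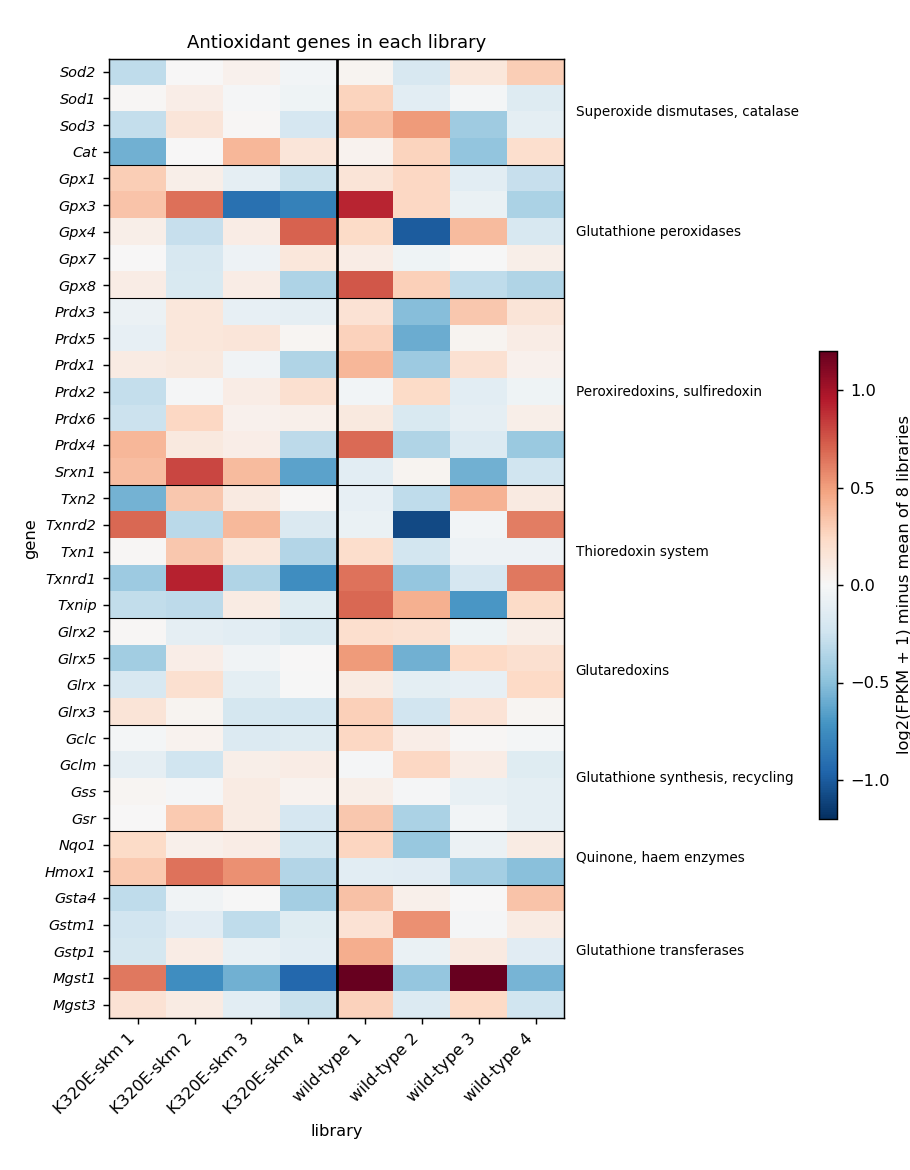
Each cell gives log2(FPKM + 1) of 1 gene (rows, by role) in 1 library (columns, K320E-skm left of the line and wild-type right of it) minus the mean of the gene over the 8 libraries, in log2 units, with red above and blue below that mean. The darkest shades stand for the ends of the scale and beyond. Mgst1, Gpx3, Gpx4, Txnrd1 and Txnrd2 vary most between libraries of one genotype, and Hmox1 and Srxn1 are red in K320E-skm 1 to 3 and blue in K320E-skm 4.

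The intervals show how large a difference 4 against 4 libraries can miss. For 33 of the 36 genes the 95% interval of the log2 fold change included 0. For 30 of the 36 it lay within 1 log2 unit of 0 in both directions. It was narrowest for Gss, with a width of 0.43, and widest for Mgst1, with a width of 2.25. These intervals are on the scale of log2(FPKM + 1), which narrows them for low genes such as Gss and Sod3. With 0.1 added in place of 1, the SE of Sod3 was 0.36, against 0.20. A gene that missed the threshold is thus not shown to be equal in both genotypes, least of all Mgst1, Gpx3, Txnrd1, Txnrd2 and Gpx4.

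**Figure D2:**
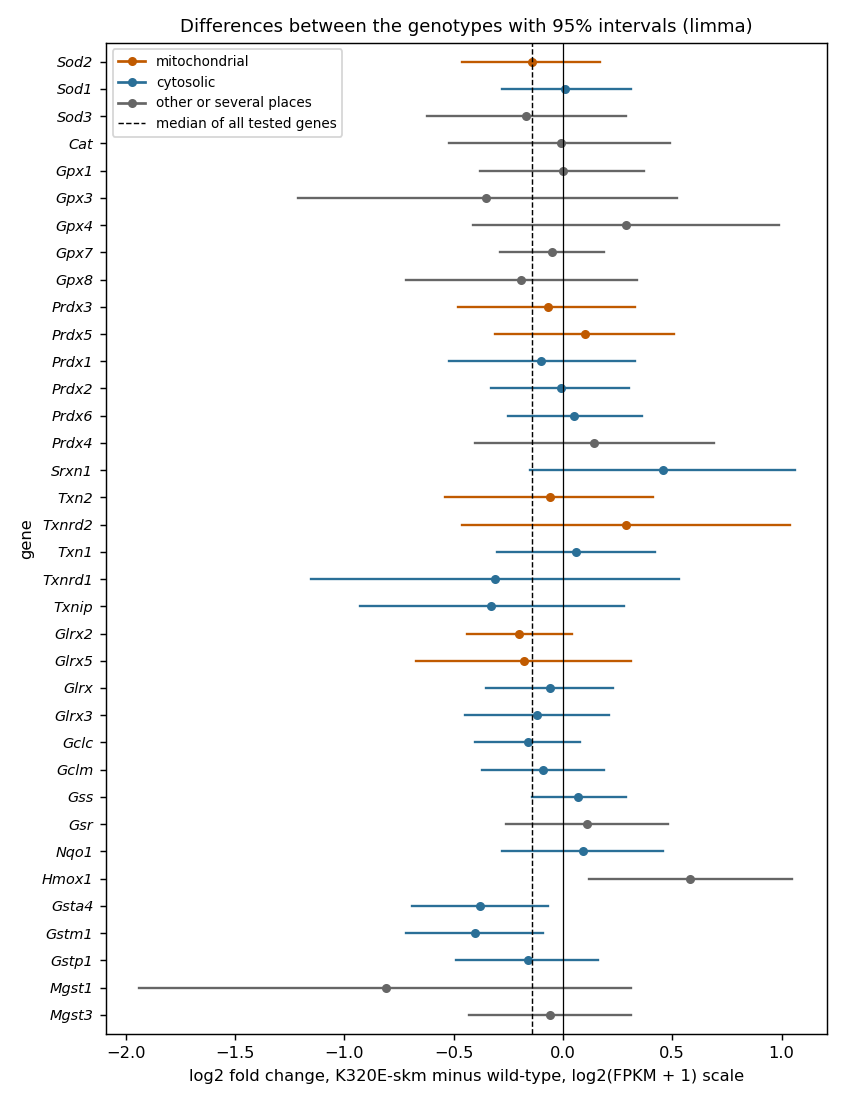
Points give the log2 fold change of each gene, K320E-skm minus wild-type, on the scale of log2(FPKM + 1), and lines its 95% interval from limma. The dashed line is the median of all tested genes at −0.14. Mitochondrial (orange) and cytosolic (blue) genes lie on both sides of that line, and only the intervals of Hmox1, Gsta4 and Gstm1 leave out 0.

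The mitochondrial enzymes overlapped between the genotypes without exception. Sod2, the manganese superoxide dismutase of the matrix, was at 30.9, 38.4, 39.9 and 37.5 FPKM in the 4 K320E-skm libraries, against 39.4, 33.5, 42.4 and 47.5 FPKM in the 4 wild-type libraries. Its log2 fold change was −0.14 (95% interval −0.46 to 0.17, limma adjusted p = 0.634). K320E-skm 1 was the lowest of the 8 and wild-type 4 the highest, with the rest mixed.

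Prdx3, the peroxiredoxin that removes most peroxide in the matrix, was at 50.6, 58.3, 49.6 and 49.3 FPKM in the 4 K320E-skm libraries, against 60.1, 36.9, 66.9 and 59.3 FPKM in the 4 wild-type libraries. Its log2 fold change was −0.07 (95% interval −0.48 to 0.33), with wild-type 2 below all other libraries. Prdx5, a peroxiredoxin found in mitochondria and in smaller part in peroxisomes and cytosol, was at 40.2, 47.5, 47.8 and 44.0 FPKM in the 4 K320E-skm libraries, against 52.6, 28.2, 44.1 and 45.9 FPKM in the 4 wild-type libraries. Here too wild-type 2 was the lowest of the 8, and the log2 fold change was 0.10 (95% interval −0.31 to 0.51). Exons of Prdx5 overlap those of Trmt112 on the other strand, and without a stated strand setting their reads cannot be told apart.

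Txn2, the mitochondrial thioredoxin that keeps Prdx3 reduced, was at 20.6, 39.0, 33.5 and 31.2 FPKM in the 4 K320E-skm libraries, against 28.8, 24.9, 41.7 and 33.4 FPKM in the 4 wild-type libraries. Txnrd2, the selenoprotein that reduces Txn2, was at 12.5, 5.7, 10 and 6.43 FPKM in the 4 K320E-skm libraries, against 6.93, 2.96, 7.2 and 11.8 FPKM in the 4 wild-type libraries. Their log2 fold changes were −0.06 (95% interval −0.54 to 0.41) and 0.29 (95% interval −0.46 to 1.04), and both genes spread over a range at least as wide within each genotype as between the genotype means.

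Glrx2, a mitochondrial glutaredoxin that removes glutathione from protein thiols, was at 9.37, 8.51, 8.38 and 8.05 FPKM in the 4 K320E-skm libraries, against 10.8, 10.6, 8.89 and 9.73 FPKM in the 4 wild-type libraries. Only K320E-skm 1 and wild-type 3 crossed over. It had the smallest p of the mitochondrial genes, with a log2 fold change of −0.20 (SE 0.11, limma adjusted p = 0.403), and stood at −0.02 after rescaling. Glrx5, which passes iron-sulfur clusters to mitochondrial proteins, was at 10.5, 15.2, 13.9 and 14.4 FPKM in the 4 K320E-skm libraries, against 20.8, 9.26, 17.1 and 16.5 FPKM in the 4 wild-type libraries. Its log2 fold change was −0.18 (95% interval −0.67 to 0.31), and wild-type 2 again lay lowest.

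Wild-type 2 was the lowest wild-type library for 6 of the 7 mitochondrial genes, all but Glrx2, and for 7 of the 17 cytosolic genes. The mean log2(FPKM + 1) of the mitochondrial genes minus that of the cytosolic genes was 0.04, −0.03, 0.15 and 0.19 in the 4 K320E-skm libraries, against −0.03, −0.33, 0.31 and 0.23 in the 4 wild-type libraries. The 4 K320E-skm values lay inside the range of the 4 wild-type values. The median log2 fold change was −0.07 over the 7 mitochondrial and −0.09 over the 17 cytosolic genes as deposited, and 0.13 and 0.10 after rescaling. Leaving out wild-type 2 put the mitochondrial median at −0.17, and leaving out wild-type 3 put it at 0.03.

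Ratios of each mitochondrial gene to its cytosolic partner, which do not depend on the scale of a library, also overlapped in all 5 pairs computed. Prdx3 over Prdx1 averaged 0.803 ± 0.102 in K320E-skm muscle, against 0.788 ± 0.0934 in wild-type muscle (SD, n = 4 each). Sod2 over Sod1 averaged 0.408 ± 0.048 in K320E-skm muscle, against 0.461 ± 0.0987 in wild-type muscle. Glrx2 over Glrx averaged 1.26 ± 0.223 in K320E-skm muscle, against 1.39 ± 0.212 in wild-type muscle. Txn2 over Txn1 was lowest in K320E-skm 1, at 1.13, and highest in wild-type 3, at 2.42. Txnrd2 over Txnrd1 ran from 0.0163 to 0.0923 in K320E-skm and from 0.0222 to 0.0452 in wild-type libraries, so that K320E-skm libraries held both the lowest and the highest ratio. The mitochondrial reductase was the less abundant form in all 8 libraries, while the mitochondrial thioredoxin was the more abundant one.

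**Figure D3:**
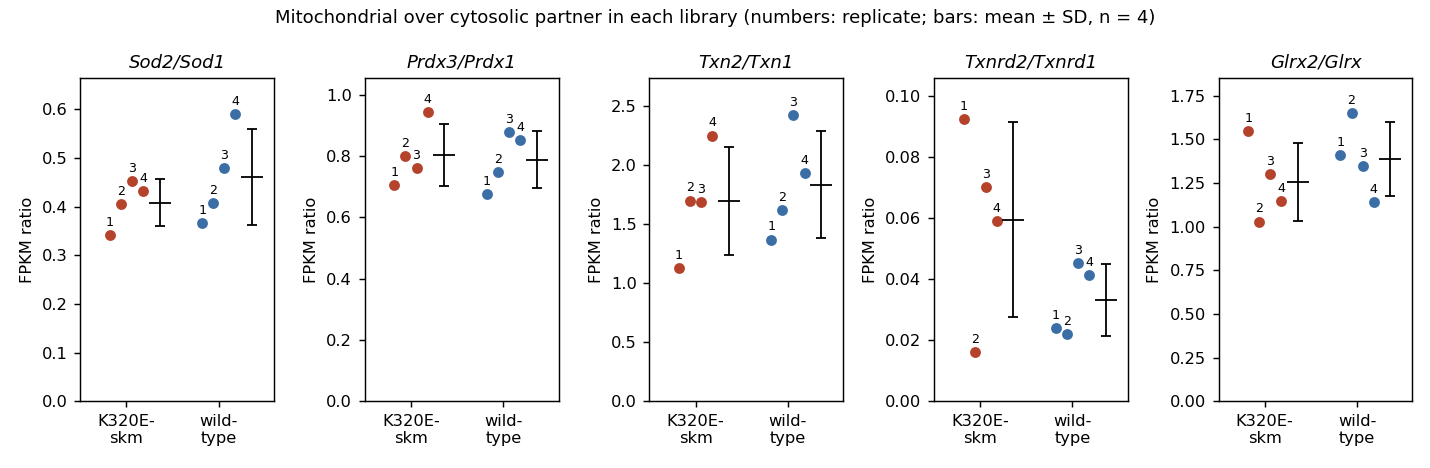
Each panel gives the FPKM of a mitochondrial gene over that of its cytosolic partner in each library (points, numbered by replicate), K320E-skm on the left and wild-type on the right, with mean ± SD (n = 4 each). The points of the 2 genotypes overlap in all 5 panels, and Txnrd2/Txnrd1 spreads most within K320E-skm muscle.

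Haem oxygenase and sulfiredoxin stood apart in 3 of the 4 K320E-skm libraries. Hmox1 encodes the inducible haem oxygenase, which breaks haem down at the endoplasmic reticulum and is strongly expressed by macrophages. It was at 3.22, 4.31, 3.97 and 1.66 FPKM in the 4 K320E-skm libraries, against 2.11, 2.09, 1.55 and 1.39 FPKM in the 4 wild-type libraries. K320E-skm 1 to 3 lay above all wild-type libraries and K320E-skm 4 among them. The means were 3.29 ± 1.18 FPKM in K320E-skm muscle, against 1.79 ± 0.37 FPKM in wild-type muscle (SD, n = 4 each), with a log2 fold change of 0.58 (SE 0.21) that did not pass (limma adjusted p = 0.295, exact two-sided permutation p = 0.0857). After rescaling it was 0.73 (SE 0.20, limma adjusted p = 0.373). Without K320E-skm 4 it was 0.80 (SE 0.15, limma adjusted p = 0.26), and with rescaling as well, a combination added after the data were seen, 0.95 (limma adjusted p = 0.0586).

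Srxn1, sulfiredoxin, which repairs overoxidised peroxiredoxins, is described in full because of its values. It was at 11.2, 15.5, 11.3 and 5.07 FPKM in the 4 K320E-skm libraries, against 7.65, 8.67, 5.33 and 7.0 FPKM in the 4 wild-type libraries. The same 3 K320E-skm libraries were above all wild-type libraries, and K320E-skm 4 was below all of them. K320E-skm 4 was the lowest K320E-skm library for 17 of the 36 genes, Hmox1 and Srxn1 among them. For how many of all genes tested it was the lowest was not counted. Its median ratio to the other libraries was 0.936, against 0.896, 1 and 0.898 in K320E-skm 1 to 3. The log2 fold change of Srxn1 was 0.46 (SE 0.27, limma adjusted p = 0.439), and 0.64 after rescaling (SE 0.27, limma adjusted p = 0.508). It was 0.75 (SE 0.18, limma adjusted p = 0.292) without K320E-skm 4 and 0.26 (limma adjusted p = 0.614) without K320E-skm 2. With rescaling and without K320E-skm 4, the combination added after the data were seen, it was 0.93 (limma adjusted p = 0.0981).

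Beside these genes, the summed FPKM of 8 macrophage markers was 71.8, 68.9, 54.0 and 26.6 in the 4 K320E-skm libraries, against 81.9, 54.9, 23.2 and 25.7 in the 4 wild-type libraries, and 0 of the 8 passed the test. Of these markers, Cd68, picked out after its values were seen, was at 6.88, 3.76, 5.01 and 1.91 FPKM in the 4 K320E-skm libraries, against 3.39, 3.52, 1.26 and 0.771 FPKM in the 4 wild-type libraries. Its log2 fold change of 0.76 (limma adjusted p = 0.36) was the largest of the 8. Those of the other markers ran from 0.03 for Cd163 to 0.39 for C1qa. The summed FPKM of 4 neutrophil markers, of which only S100a8 passed the expression filter, was 5.84, 6.93, 25.5 and 0.952 in the 4 K320E-skm libraries, against 2.05, 1.3, 1.47 and 3.07 in the 4 wild-type libraries. In this sum K320E-skm 1 to 3 lay above all wild-type libraries and K320E-skm 4 below them, the order also seen in Srxn1. Of the 4 markers only S100a8 had this order by itself. S100a9, Ngp and Ltf were highest in K320E-skm 3, but K320E-skm 1 and 2 did not lie above all wild-type libraries. S100a9 stood at 0.326 FPKM in K320E-skm 1, below every wild-type value (0.523 to 2.01 FPKM). S100a8 had a log2 fold change of 1.63 (SE 0.56, limma adjusted p = 0.289). Wild-type 1 had the highest macrophage sum. The part of these cells in the levels of Hmox1 and Srxn1 was not tested.

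Nqo1, a quinone reductase and a standard NRF2 target, averaged 7.85 ± 1.11 FPKM in K320E-skm muscle, against 7.42 ± 1.69 FPKM in wild-type muscle (SD, n = 4 each), with a log2 fold change of 0.09 (95% interval −0.28 to 0.46). The 2 subunits of glutamate-cysteine ligase, which makes the first and rate-limiting step of glutathione synthesis, were the catalytic Gclc, at −0.16 (95% interval −0.40 to 0.08), and the regulatory Gclm, at −0.09 (95% interval −0.37 to 0.19). Gss, which adds glycine in the next step, averaged 2.45 ± 0.107 FPKM in K320E-skm muscle, against 2.28 ± 0.189 FPKM in wild-type muscle, with a log2 fold change of 0.07 (SE 0.10) as deposited and 0.22 (SE 0.08, limma adjusted p = 0.449) after rescaling. Gsr, glutathione reductase, averaged 6.61 ± 1.14 FPKM in K320E-skm muscle, against 6.12 ± 1.46 FPKM in wild-type muscle. Exons of Gclm and Gss overlap those of other annotated genes, so their values may hold reads of both.

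The antioxidant response element was looked for in the promoters, as the letters TGACNNNGC on either strand within the 300 bases from 250 before to 50 after each annotated start (RefSeq, GRCm38.p6). Entries were found for 30 of the 36 genes, and 6 of these, or 20.0%, held the letters, against 14.0% of 27025 genes. The genes with no entry, which were not searched, were Hmox1, Gsta4, Gclc, Gsr, Prdx6 and Sod3. The matches are shown because they include both a gene that stood apart in K320E-skm 1 to 3 and genes that did not. Each line gives the gene's own strand, 5′ to 3′, with the matching letters, all in the reverse orientation GCNNNGTCA, in capitals.
Srxn1, chr2:152105542-152105570, plus strand: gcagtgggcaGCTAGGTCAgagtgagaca
Prdx1, chr4:116685456-116685484, plus strand: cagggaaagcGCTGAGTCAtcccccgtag
Txnrd1, chr10:82859104-82859132, plus strand: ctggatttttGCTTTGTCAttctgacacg
Gclm, chr3:122245413-122245441, plus strand: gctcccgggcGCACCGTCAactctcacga
Sod1, chr16:90220696-90220724, plus strand: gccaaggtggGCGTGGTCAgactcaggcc
Mgst1, chr6:138140461-138140489, plus strand: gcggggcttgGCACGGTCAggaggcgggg
The match of Srxn1 lies after the start, at bases 29 to 37, and the other 5 lie before it. These matches are a description of the letters and not of binding. The log2 fold changes of the 6 genes were 0.46 for Srxn1, −0.10 for Prdx1, −0.31 for Txnrd1, −0.09 for Gclm, 0.01 for Sod1 and −0.81 for Mgst1. A link between the letters and these values was not tested.

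**Figure D4:**
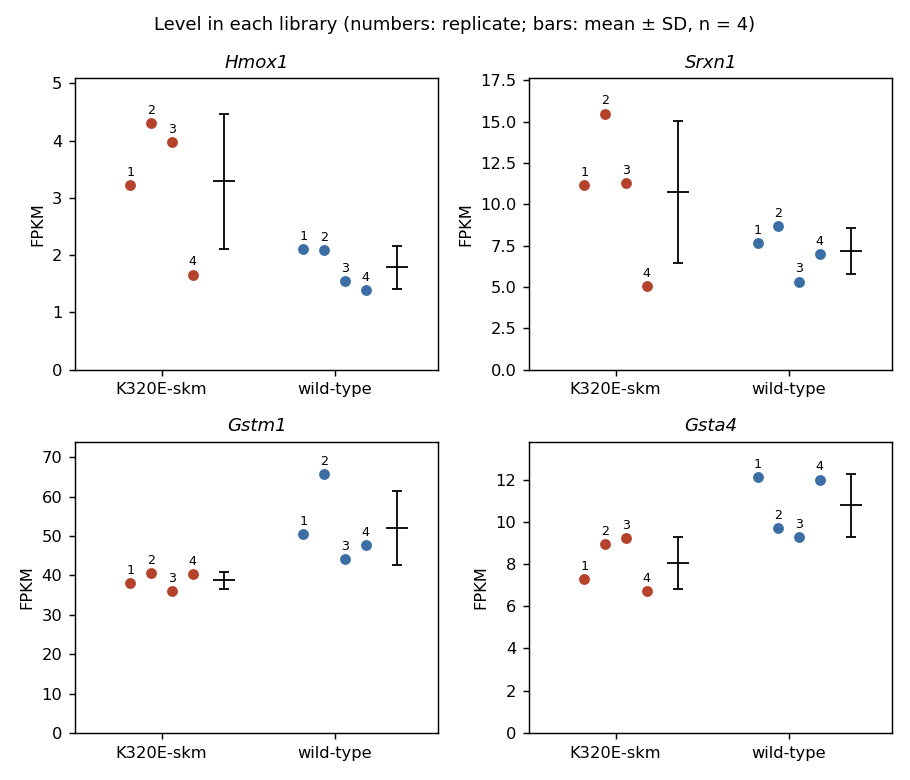
FPKM of Hmox1, Srxn1, Gstm1 and Gsta4 in each library (points, numbered by replicate), K320E-skm on the left and wild-type on the right, with mean ± SD (n = 4 each). In Hmox1 and Srxn1, replicates 1 to 3 of K320E-skm muscle lie above all wild-type points and replicate 4 does not, while in Gstm1 and Gsta4 all K320E-skm points lie below all wild-type points.

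A pair of glutathione transferases was lower in every K320E-skm library than in every wild-type library. Gstm1, a mu-class transferase that joins glutathione to electrophiles, was at 38.0, 40.6, 36 and 40.3 FPKM in the 4 K320E-skm libraries, against 50.5, 65.7, 44.2 and 47.7 FPKM in the 4 wild-type libraries. Its log2 fold change was −0.40 (SE 0.14, limma adjusted p = 0.289). Gsta4, an alpha-class transferase that clears the lipid peroxidation product 4-hydroxynonenal, was at 7.28, 8.93, 9.21 and 6.74 FPKM in the 4 K320E-skm libraries, against 12.1, 9.71, 9.29 and 12 FPKM in the 4 wild-type libraries. Its log2 fold change was −0.38 (SE 0.14, limma adjusted p = 0.297). The K320E-skm libraries lay apart from wild-type for 2 of the 36 genes, or 5.56%, all in the lower direction, where 9.59% of all genes tested lay apart in that direction and 0.333% in the higher, so the share among the antioxidant genes was not above that of all genes. The exact two-sided permutation p was 0.0286 for both, the smallest that 70 assignments of 8 libraries can give, and 0.288 after Benjamini-Hochberg adjustment over all genes tested. After rescaling, the log2 fold changes were −0.21 for Gstm1 (limma adjusted p = 0.65) and −0.20 for Gsta4 (limma adjusted p = 0.638).

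Of 11 other glutathione transferases and glyoxalases tested, the mu-class relatives of Gstm1 are given beside it, and their near-identical sequences make the split of reads among them uncertain. Gstm2 averaged 28.7 ± 3.76 FPKM in K320E-skm muscle, against 38.1 ± 9.21 FPKM in wild-type muscle, and Gstm4 averaged 1.19 ± 0.189 FPKM in K320E-skm muscle, against 1.7 ± 0.281 FPKM in wild-type muscle (SD, n = 4 each). Gstm7 averaged 0.833 ± 0.246 FPKM in K320E-skm muscle, against 1.27 ± 0.164 FPKM in wild-type muscle. Gstm5 was nearly level, at 33.5 ± 3.34 FPKM in K320E-skm muscle, against 35.6 ± 3.91 FPKM in wild-type muscle. None of the 4 passed, with adjusted p from limma between 0.305 and 0.762. Gsto1, an omega-class transferase of the same list and, like the mu-class genes, picked out after its values were seen, lay apart in the other direction. It was at 15.5, 15.0, 19.0 and 13.9 FPKM in the 4 K320E-skm libraries, against 13.1, 12.6, 10.1 and 13.3 FPKM in the 4 wild-type libraries (log2 fold change 0.34, or 0.53 rescaled, limma adjusted p = 0.307 as deposited). The pi-class Gstp1 averaged 29.3 ± 2.71 FPKM in K320E-skm muscle, against 33.3 ± 6.34 FPKM in wild-type muscle and overlapped. Mgst3, a microsomal transferase, averaged 83.0 ± 11.7 FPKM in K320E-skm muscle, against 86.8 ± 16.1 FPKM in wild-type muscle.

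Mgst1, the microsomal transferase of the endoplasmic reticulum and outer mitochondrial membrane, varied most of all 36 genes, and its values are given for that reason. It was at 29.7, 10.8, 12.3 and 9.29 FPKM in the 4 K320E-skm libraries, against 53.4, 13.3, 44.3 and 12.4 FPKM in the 4 wild-type libraries. The 3 high libraries, K320E-skm 1 and wild-type 1 and 3, were those labelled male that also had Ddx3y at 14.3, 21.6 and 16.1 FPKM. The other 5 libraries, K320E-skm 4 with its male label among them, had Ddx3y at 0.0117 to 0.0516 FPKM. In the fit with labelled sex beside genotype, whose sex term was read after the data were seen, the log2 difference of Mgst1, male minus female, was 1.18 (SE 0.36, limma adjusted p = 1.0), and 3 of the 36 genes had an unadjusted p under 0.05 for the sex label (Mgst1, Gpx4 and Cat), against 2.7% of all genes tested. No gene passed for the sex label after adjustment. Of 5 sex-linked genes, only 1, Xist, passed the expression filter and was tested, and the label counts K320E-skm 4 as male. The result therefore does not show that the sexes were alike.

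The genotype difference of Mgst1 was −0.81 (95% interval −1.94 to 0.31, limma adjusted p = 0.45), −1.16 without K320E-skm 1 and −0.46 without wild-type 1. Of the libraries with Ddx3y, 1 was K320E-skm and 2 were wild-type, so the genotype means of Mgst1, 15.5 ± 9.56 FPKM in K320E-skm muscle, against 30.8 ± 21.1 FPKM in wild-type muscle (SD, n = 4 each), also differ in that make-up. K320E-skm 1 was below both wild-type libraries with Ddx3y. K320E-skm 2 to 4, at 9.29 to 12.3 FPKM, were below both wild-type libraries without it, at 12.4 and 13.3 FPKM. These are values of single libraries with no test.

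**Figure D5:**
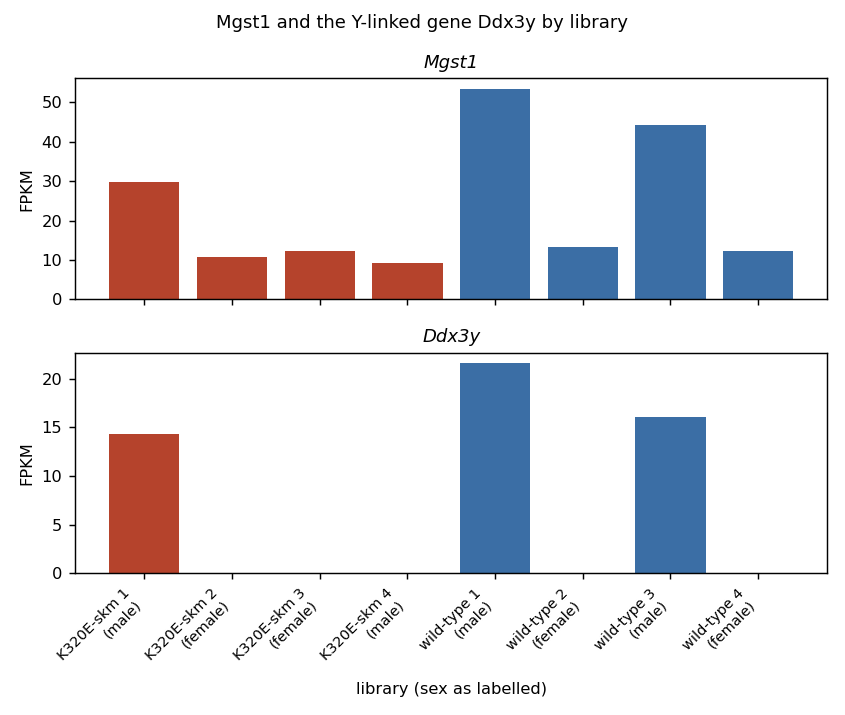
Bars give the FPKM of Mgst1 (top) and of the Y-linked gene Ddx3y (bottom) in each library, K320E-skm in red on the left and wild-type in blue on the right, with the sex label under each name. Mgst1 is high in the 3 libraries in which Ddx3y is present and low in the other 5, one of which is labelled male.

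The cytosolic dismutase and peroxiredoxins had genotype means close to each other on the deposited scale. After rescaling, the log2 fold changes were 0.21 for Sod1, 0.10 for Prdx1, 0.19 for Prdx2 and 0.25 for Prdx6. None of these passed (limma adjusted p from 0.557 to 0.888), and the median over all genes tested was 0.02 on that scale. Sod1, the copper-zinc superoxide dismutase, averaged 90.0 ± 3.45 FPKM in K320E-skm muscle, against 89.7 ± 12.5 FPKM in wild-type muscle, with a log2 fold change of 0.01 (95% interval −0.28 to 0.31). Prdx1 averaged 65.5 ± 9.5 FPKM in K320E-skm muscle, against 71.1 ± 16.6 FPKM in wild-type muscle. Prdx2, the peroxiredoxin that red blood cells hold in large amounts, averaged 50.7 ± 7.03 FPKM in K320E-skm muscle, against 50.9 ± 5.89 FPKM in wild-type muscle, and its exons overlap those of Rnaseh2a and Junb on the other strand. Prdx6, which uses glutathione in place of thioredoxin, averaged 30.8 ± 4.47 FPKM in K320E-skm muscle, against 29.5 ± 3.04 FPKM in wild-type muscle (SD, n = 4 each). The summed FPKM of 6 erythrocyte markers was 133 to 279 in K320E-skm and 222 to 370.1 in wild-type libraries, highest in wild-type 3, and its part in the level of Prdx2 was not tested.

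Cat, the catalase of peroxisomes, averaged 27.1 ± 7.41 FPKM in K320E-skm muscle, against 27.0 ± 5.91 FPKM in wild-type muscle, lowest in K320E-skm 1 at 17.3 FPKM and in wild-type 3 at 18.7 FPKM. Txn1, the cytosolic thioredoxin, averaged 18.7 ± 3.77 FPKM in K320E-skm muscle, against 17.8 ± 2.34 FPKM in wild-type muscle. Txnip, which binds and inhibits thioredoxin and limits glucose uptake, averaged 159.8 ± 22.0 FPKM in K320E-skm muscle, against 211 ± 75.7 FPKM in wild-type muscle, and its wild-type values ran from 109 to 288 FPKM on both sides of the K320E-skm values. Glrx and Glrx3, cytosolic glutaredoxins, had log2 fold changes of −0.06 and −0.12, with 95% intervals from −0.35 to 0.23 and from −0.45 to 0.21.

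Txnrd1, the cytosolic thioredoxin reductase and a selenoprotein, had a mean over the 8 libraries of 200.4 FPKM. That of Txnip was 186 FPKM, and the FPKM values of these genes overlapped over the libraries. Txnrd1 was among the most variable genes. It was at 135, 349, 143 and 109 FPKM in the 4 K320E-skm libraries, against 289, 133, 159 and 284 FPKM in the 4 wild-type libraries. K320E-skm 2 was the highest of all 8, and wild-type 1 and 4 also stood well above the rest. The log2 fold change was −0.31 (95% interval −1.15 to 0.53), and leaving out 1 library put it between −0.67 (without K320E-skm 2, limma adjusted p = 0.408) and −0.11 (without K320E-skm 4, limma adjusted p = 0.91).

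The glutathione peroxidases spanned nearly the whole range of levels. Gpx4, which reduces lipid peroxides in membranes and has cytosolic and mitochondrial forms, was the most abundant of all 36 genes, at 1012, 793, 1026 and 1569 FPKM in the 4 K320E-skm libraries, against 1127, 482, 1252 and 843 FPKM in the 4 wild-type libraries. Its log2 fold change was 0.29 (95% interval −0.41 to 0.99), with K320E-skm 4 highest and wild-type 2 lowest, and FPKM per gene do not separate its forms. Gpx1, the general glutathione peroxidase of cytosol and mitochondria, averaged 82.1 ± 14.0 FPKM in K320E-skm muscle, against 82.3 ± 13.8 FPKM in wild-type muscle, a log2 fold change of −0.00 (95% interval −0.38 to 0.37).

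Gpx3, the secreted peroxidase of plasma, was at 163, 203, 68.4 and 72.8 FPKM in the 4 K320E-skm libraries, against 242, 152, 121 and 98.3 FPKM in the 4 wild-type libraries. Both genotypes held high and low libraries, and the log2 fold change was −0.35 (95% interval −1.21 to 0.52). Sod3, the extracellular dismutase, had the lowest level of the 36, at 1.08 ± 0.282 FPKM in K320E-skm muscle, against 1.39 ± 0.692 FPKM in wild-type muscle (SD, n = 4 each). Among the enzymes of the endoplasmic reticulum, Prdx4 averaged 3.17 ± 0.825 FPKM in K320E-skm muscle, against 2.91 ± 1.59 FPKM in wild-type muscle. Gpx7 averaged 1.76 ± 0.263 FPKM in K320E-skm muscle, against 1.85 ± 0.13 FPKM in wild-type muscle, and Gpx8 2.53 ± 0.531 FPKM in K320E-skm muscle, against 3.2 ± 1.58 FPKM in wild-type muscle. Wild-type 1 had the highest Gpx3, Gpx8 and Prdx4 of all 8 libraries. It was high more widely, with a median ratio to the others of 1.31, where the other libraries had 0.896 to 1.07. It was the lowest wild-type library for 0 of the 36 genes. Its sums of macrophage and endothelial markers, 81.9 and 47.7 FPKM, were the highest of the 8. Its sum over 6 fibroblast markers, which include collagens, was also the highest, at 519 FPKM, against 199 to 303 FPKM in K320E-skm and 183 to 311 FPKM in the other wild-type libraries, and the part of these cells in the 3 genes was not tested.

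The order of levels, by the mean over the 8 libraries, ran from Gpx4 at 1013 FPKM through Txnrd1, Txnip and Gpx3, whose libraries overlapped, to Gpx7 and Sod3 at 1.8 and 1.24 FPKM. Neighbours such as Sod1, Mgst3 and Gpx1, at 89.8, 84.9 and 82.2 FPKM, overlapped over the 8 libraries and are not ordered by these data. The highest mitochondrial gene was Prdx3 in rank 9, at 53.9 FPKM. Gss varied least between libraries, with a highest over lowest value of 1.23, and Mgst1 most, at 5.75.

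Lists of related genes were counted in the same test, and 0 of their 87 tested genes passed. At an unadjusted p under 0.05, 3 of the 87 were higher in K320E-skm muscle and 15 lower, where the rule was met by 1.07% and 13.6% of all genes tested. After rescaling, 16 of the 87 were higher and 6 lower, where the rule was met by 5.72% and 3.76% of all genes tested. The median log2 fold change was 0.05 for NRF2 regulators (0.23 rescaled), −0.07 for NADPH supply (0.08 rescaled), −0.16 for glutathione transport and breakdown (0.02 rescaled) and −0.14 for other glutathione transferases and glyoxalases (0.05 rescaled). It was −0.25 for selenoproteins (−0.07 rescaled), −0.09 for other thioredoxin fold proteins (0.10 rescaled), 0.08 for sources of superoxide and peroxide (0.20 rescaled) and −0.25 for repair (−0.08 rescaled). Over all genes it was −0.14, or 0.02 rescaled. For each list, the member with the smallest p and the one with the highest mean FPKM are given. Among 9 regulators of NRF2, Cul3, the scaffold of the ligase that marks NRF2 for degradation, averaged 41.5 ± 3.4 FPKM in K320E-skm muscle, against 57.6 ± 6.38 FPKM in wild-type muscle, without overlap (log2 fold change −0.46, limma adjusted p = 0.271). Sephs1, Msrb3 and Maob, given below, also lay apart in the lower direction, as did 9.59% of all genes tested. Sqstm1, the autophagy adaptor that binds KEAP1, averaged 166 ± 15.5 FPKM in K320E-skm muscle, against 161 ± 23.7 FPKM in wild-type muscle. Nfe2l2, the gene of NRF2 itself and named after its values were seen, was at 16.1, 18.6, 12.8 and 9.32 FPKM in the 4 K320E-skm libraries, against 14.5, 13.7, 10.6 and 10.8 FPKM in the 4 wild-type libraries. Its lowest value was in K320E-skm 4.

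Of 13 tested genes that supply NADPH, Me1, cytosolic malic enzyme, averaged 11.9 ± 1.37 FPKM in K320E-skm muscle, against 18.9 ± 4.27 FPKM in wild-type muscle (log2 fold change −0.60, limma adjusted p = 0.271). Idh2, the mitochondrial isocitrate dehydrogenase that makes NADPH, averaged 56.9 ± 28.5 FPKM in K320E-skm muscle, against 61.5 ± 5.35 FPKM in wild-type muscle, with 97.6 FPKM in K320E-skm 3. Nnt, the transhydrogenase that makes NADPH at the inner membrane and that carries a known deletion in C57BL/6J mice, was picked out after its values were seen. It was at 5.97, 7.21, 13.1 and 12.9 FPKM in the 4 K320E-skm libraries, against 8.72, 4.35, 3.62 and 4.35 FPKM in the 4 wild-type libraries (log2 fold change 0.78, SE 0.29, limma adjusted p = 0.298). K320E-skm 1 and 2 lay between wild-type 1 and the other wild-type libraries.

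In glutathione transport and breakdown, with 10 genes tested, Slc25a39, which carries glutathione into mitochondria, had both the smallest p and the highest level, at 19.6, 19.3, 21.5 and 14.3 FPKM in the 4 K320E-skm libraries, against 14.8, 15.4, 14.3 and 12.8 FPKM in the 4 wild-type libraries (log2 fold change 0.35, limma adjusted p = 0.308). K320E-skm 1 to 3 were above all wild-type libraries and K320E-skm 4 was not, the order also seen in Hmox1 and Srxn1. K320E-skm 4 was the lowest K320E-skm library for 17 of the 36 antioxidant genes. How many of all genes share the order was not counted. Among 15 genes of selenoproteins and their synthesis, 4 had an unadjusted p under 0.05 as deposited, all lower in K320E-skm muscle, beside 13.6% of all genes tested in that direction. After rescaling, 2 were lower by that rule and 1 was higher. Sephs1, a homologue of the enzyme that makes selenophosphate, averaged 2.32 ± 0.321 FPKM in K320E-skm muscle, against 3.65 ± 0.529 FPKM in wild-type muscle, without overlap (log2 fold change −0.48, limma adjusted p = 0.271). Selenow, the most abundant of them, averaged 793 ± 273 FPKM in K320E-skm muscle, against 983 ± 295 FPKM in wild-type muscle.

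Among genes that repair oxidised proteins and related genes, with 7 tested, Msrb3, a methionine sulfoxide reductase, averaged 18.3 ± 1.85 FPKM in K320E-skm muscle, against 28.6 ± 5.39 FPKM in wild-type muscle, without overlap (log2 fold change −0.60 as deposited and −0.41 after rescaling, limma adjusted p = 0.271 as deposited). Park7, a redox-sensitive chaperone, averaged 134 ± 22.1 FPKM in K320E-skm muscle, against 168 ± 23.7 FPKM in wild-type muscle. Of 8 tested sources of superoxide and peroxide, Maob, a monoamine oxidase of the outer mitochondrial membrane, averaged 4.21 ± 0.737 FPKM in K320E-skm muscle, against 6.39 ± 0.668 FPKM in wild-type muscle, without overlap (log2 fold change −0.51, limma adjusted p = 0.271). Xdh, xanthine dehydrogenase, averaged 7.98 ± 1.52 FPKM in K320E-skm muscle, against 6.47 ± 1.48 FPKM in wild-type muscle. Of 14 other thioredoxin fold genes, Txndc16 averaged 3.58 ± 0.357 FPKM in K320E-skm muscle, against 4.65 ± 0.892 FPKM in wild-type muscle. Txnrd3, the third thioredoxin reductase, was at 3.93 FPKM in K320E-skm 1 and between 28.7 and 89.3 FPKM in the other 7 libraries.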

How the data were processed

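The data are 8 RNA libraries of tibialis anterior muscle, 4 per genotype, with genotype taken from the titles. The authors deposited FPKM per Ensembl gene in 1 table, all 8 columns of which matched a sample and 0 were left out. CASAVA, TopHat2 2.0.10 and Cufflinks 2.1.1 with build mm10 are named in the submitters' processing notes, per the labels, while the annotation release and the strand setting used there were not found in the labels (not given in the sources used here). FPKM are relative to all mapped fragments, so when abundant transcripts such as ribosomal RNA grow, the values of all other genes shrink, and Cufflinks divides reads of overlapping or similar genes, so that an exact 0 can be a failed estimate.

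Gene names were looked up in GENCODE M21 (GRCm38), where 47950 identifiers were found. Values were tested as log2(FPKM + 1), a scale on which fold changes of low genes are smaller than their ratio, with limma 3.58.1 in R 4.3.3 (a genotype term, two-sided, with trended empirical Bayes) on the 10521 genes with 1 FPKM or more in at least 4 libraries, adjusted by Benjamini-Hochberg over all of them. The script was tested on simulated data. Exact permutation p came from the 70 assignments of 4 against 4. Each column header carries a number of its own, and each genotype held libraries with and without Ddx3y, so different animals were used within a genotype. The labels do not describe separate origins beyond the samples. The p-values reflect no more than how these samples vary, which may in part be technical. The genes and lists were chosen with earlier results of these data known. Genes with unadjusted p under 0.05, those without overlap and the mitochondrial genes were given by library. Of the related lists, the smallest p and the highest level were named. Srxn1, Mgst1, Txnrd1, Gpx3, Gpx4, Nfe2l2, Nnt, Cd68, S100a8, Gsto1 and the Gstm genes were added after their values were seen. Python 3.11.15, pandas 2.3.3 and matplotlib 3.10.9 were used.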

Additional observations from a re-analysis of the deposited data

Results flagged for a closer look

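In 72 groups of 4 values, 36 genes in each genotype, 3 held a library far from the other 3 by Dixon's test of the gap over the range, where chance flags about 1 in 20. These were Prdx3 at 58.3 FPKM in K320E-skm 2, Txnrd1 at 349 FPKM in K320E-skm 2 and Mgst1 at 29.7 FPKM in K320E-skm 1. Of the 4 K320E-skm libraries, the first was the only one with Ddx3y, at 14.3 FPKM.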

How the results depend on the processing

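No antioxidant gene passed under any alternative run, with a smallest adjusted p of 0.0586 over 606 values, of which 541 kept their sign and 65 did not. The genes called among all genes tested, 2 as deposited, were 1 with no filter, with a filter of 5 FPKM (28 of the 36 genes left) and with robust empirical Bayes, and 0 to 3 without 1 library (0 without K320E-skm 2 or 3, 3 without K320E-skm 4, and 1 without K320E-skm 1, wild-type 2 or wild-type 4). The median over all 36 genes was −0.06 as deposited, 0.12 with median-ratio rescaling and 0.08 with quantile normalization, and that over cytosolic genes −0.09, 0.10 and 0.05. Of the genes at an unadjusted p under 0.05, 7.32% were higher in K320E-skm muscle as deposited (113 higher, 1431 lower), 60.3% rescaled (602 and 396), 48.2% with quantile normalization (504 and 542), and 18.9% without wild-type 1. Depth is unknown, and the cause of these differences was not tested.

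The log2 fold change turned its sign under median-ratio rescaling for Cat 0.18, Gclm 0.07, Glrx 0.11, Glrx3 0.07, Glrx5 0.01, Gpx1 0.20, Gpx7 0.08, Gstp1 0.03, Mgst3 0.14, Prdx1 0.10, Prdx2 0.19, Prdx3 0.13, Sod2 0.05 and Txn2 0.13. Under quantile normalization it did so for Cat 0.15, Gclm 0.05, Glrx 0.09, Glrx3 0.04, Gpx1 0.07, Gpx7 0.08, Gstp1 0.00, Mgst3 0.01, Prdx1 0.01, Prdx2 0.14, Prdx3 0.09, Sod2 0.03 and Txn2 0.11. With array weights it did so for Cat 0.04, Gclm 0.01, Gpx1 0.12, Gpx8 0.12, Mgst3 0.02, Prdx2 0.06, Sod3 0.03 and Txnrd2 −0.10. Leaving out 1 library gave ranges across 0 for Cat (−0.18 to 0.18), Glrx (−0.14 to 0.01), Gpx1 (−0.10 to 0.09), Gpx7 (−0.11 to 0.00), Gpx8 (−0.34 to 0.03), Gsr (−0.00 to 0.23), Mgst3 (−0.15 to 0.03), Nqo1 (−0.05 to 0.19), Prdx1 (−0.26 to 0.02), Prdx2 (−0.08 to 0.08), Prdx3 (−0.25 to 0.03), Prdx5 (−0.08 to 0.21), Prdx6 (−0.02 to 0.15), Sod1 (−0.03 to 0.11), Txn1 (−0.04 to 0.19), Txn2 (−0.18 to 0.12) and Txnrd2 (−0.02 to 0.54). Hmox1 ran from 0.46 without K320E-skm 2 to 0.80 without K320E-skm 4, Gpx3 from −0.63 without K320E-skm 2 to −0.10 without wild-type 1 and Gpx4 from 0.01 without wild-type 2 to 0.47 without wild-type 3, and Gstm1 and Gsta4 kept their sign under all settings run.

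With the replicate number as a block, 2 genes were called over all genes tested and 0 of the 36 passed. Libraries with the same number correlated at 0.0233 to 0.156 in their deviations from the group means, so the numbers are not taken to pair the samples, although 6 of the 8 libraries correlated best with their own number.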
